A study of Homo sapiens with 1536 samples.

Results

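The compounds described here are 6 drugs that bind tubulin, taken by name from the deposited table of relative cell numbers of a pooled chemical-genetic screen. They are the microtubule stabiliser Paclitaxel, the microtubule destabilisers Vincristine and Mebendazole, and 3 compounds sold as kinase inhibitors that also bind tubulin, KX2391, Rigosertib and Tivantinib. They make up 6 of the 180 compounds of the screen and 48 of its 1536 wells. In the screen (QMAP-Seq), a pool of 5 breast cancer cell lines, each carrying 12 sgRNAs, was exposed for 72 h to a compound or to DMSO, and the cell number of every line-sgRNA pair was read from the barcode counts of the well. Each of the 6 drugs was given at 10 nM, 100 nM, 1 µM and 10 µM in 2 replicate wells, so that all of them can be compared at matched doses and at the same time. The controls were 96 DMSO wells, 6 on each of 16 plates. By the labels of these wells each plate held 1 dose level and 1 replicate, so that different doses were compared across plates. The labels of the compound wells name no plate.

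The pool held the estrogen receptor-positive line ZR-75-1, the HER2-positive line SKBR3 and the triple-negative lines BT-20, HCC-38 and MDA-MB-231. All cells, those in DMSO included, carried doxycycline-inducible Cas9 and had been in doxycycline for 7 days when compound was added. Each line was a mixture of cells with 1 of 11 gene-targeting sgRNAs (HSF1, HSF2, ERN1, XBP1, ATF3, ATF4, ATF6, NFE2L2, KEAP1, ATG7 and SLC35F2) or with sgNT, the sum of 5 guides without a target. The value of a line used here is the mean relative cell number over its sgRNAs (12, or 10 in ZR-75-1, where sgHSF1 and sgKEAP1 were left out as in the methods), in percent of the DMSO median. It is therefore a value of a mixture of knockout cells and not of unedited cells. A low relative cell number does not tell death from a halt in division, since only the cells present at 72 h were counted. The 5 lines of a well shared medium, dose and sequencing library, and by the methods the replicate wells were dosed from the same dilution of compound, so that the replicate error covers the well and its library and not a separate culture or dilution.

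Microtubules are hollow polymers of alpha- and beta-tubulin that grow and shrink at their ends, and dividing cells build the mitotic spindle from them. Drugs that stabilise the polymer and drugs that stop its assembly both disturb the spindle, and cells held in mitosis by the spindle checkpoint may die there or leave it without dividing properly. Paclitaxel is a taxane that binds beta-tubulin inside the polymer and stabilises it, and it is a standard drug for breast cancer. Vincristine is a vinca alkaloid that binds at the vinca site and blocks assembly. Mebendazole is a benzimidazole used against parasitic worms, which binds at the colchicine site. KX2391 was developed as an inhibitor of the kinase Src that does not compete with ATP, and it also blocks tubulin polymerisation. Rigosertib, a benzyl styryl sulfone, was introduced as an inhibitor of PLK and PI3K, and Tivantinib as an inhibitor of the receptor tyrosine kinase c-Met, and both have been found to bind tubulin. The compound list of the study named tubulin as a target for 3 of the 6 (Paclitaxel, Vincristine and KX2391), and the 6 belong to different chemical classes, so that no pair differs by a single defined change in structure.

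The line of every cell was read from an 8-base barcode placed downstream of the sgRNA. These barcodes are shown because each comparison of lines below rests on telling them apart, and the capitals mark the whole barcode:
ZR-75-1: ATCACTGG
SKBR3: CGGTGACC
HCC-38: TACAGAGG
MDA-MB-231: TAACAGTT
BT-20: ATTGTCAA

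Wells of the 6 drugs had between 43903 and 1160615 reads (median 230042), and the reads of 1 line in 1 well ranged from 2202 to 435927. The spike-in standards, known numbers of cells of a separate line with barcodes of their own, took 4.21 to 36.5% of the reads in these wells and 4.52 to 7.10% in DMSO. At 1 µM the replicate 2 wells were shallower (43903 to 167159 reads) than the replicate 1 wells (111198 to 349627). The mean over the 5 lines was between 79.5% and 137.2% in the 96 DMSO wells (SD 10.1), and the mean of a plate between 92.2% and 108.8%. A pair of wells stood apart. The KX2391 well at 10 nM in replicate 1 had a mean of 149.4%, above every DMSO well, against 105.5% in replicate 2. The Paclitaxel well at 10 µM in replicate 2 had a standard curve with a slope of 1.77, against 0.938 to 1.40 in the DMSO wells. The value of each replicate is printed, and the main comparisons that rest on these wells are also given without them. No pair of replicate wells had reads alike within counting error (chi-square per degree of freedom of at least 33.04), so that all were kept as separate replicates. This check covers counting error only, since reads after PCR are not independent molecules, and the errors given below come from the replicate wells.

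Of the 120 compound-dose-line values of the 6 drugs, 94 were lower and 3 were higher than DMSO (limma, adjusted p under 0.05). Over all compounds with relative cell numbers, 32.5% of such values were lower and 1.55% were higher. Where a drug acted, the pool fell to about the same level with all 6, and the lowest means over the 5 lines lay between 18.4% and 23.5% of DMSO. The doses needed to get there differed.

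Paclitaxel lowered all 5 lines at all 4 doses. At 10 nM the mean over the lines was 29.1% and 39.3% in the 2 replicates (34.2% ± 7.23, SD, n = 2). At 100 nM it was 23.2% and 13.5% (18.4% ± 6.88), and at 1 µM 16.95% and 25.4% (21.2% ± 5.98). At 10 µM it was 26.9% and 36.96% (31.9% ± 7.13). The lowest mean was thus not at the highest dose, and the SD between the replicates of Paclitaxel (5.98 to 7.23) was above that of the other 5 drugs at every dose at which their mean lay below 50% (0.195 to 4.998). Among the lines at 10 nM, SKBR3 was the lowest, with 13.5% and 17.8%, which is 6.45-fold below DMSO on the fitted scale. BT-20 was the highest, with 45.3% and 58.2%, or 1.96-fold below DMSO. Between 10 nM and 100 nM all 5 lines fell further, by 1.51-fold in ZR-75-1 to 2.49-fold in BT-20.

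Vincristine also lowered all 5 lines at all 4 doses, and its replicates lay closer together. The mean over the lines was 26.8% and 25.3% at 10 nM, 17.9% and 20.7% at 100 nM, 18.1% and 20.98% at 1 µM, and 20.9% and 19.3% at 10 µM. From 100 nM upwards the mean was flat, but the lines moved apart beneath it. ZR-75-1 fell from 37.3% at 10 nM (38.6% and 35.99%) to 21.3% at 100 nM (19.5% and 23.01%) and 13.3% at 1 µM (13.4% and 13.1%), with both steps past the test (adjusted p = 6.2e-04 and 0.00637). MDA-MB-231 fell from 32.4% to 18.3% between 10 nM and 100 nM (adjusted p = 5.1e-05). HCC-38 stayed between 22.2% and 23.7% at all doses. BT-20 was at 28.4%, 27.3%, 36.98% and 39.6% from the lowest to the highest dose, and its rise between 100 nM (25.9% and 28.8%) and 1 µM (34.2% and 39.7%) had an adjusted p of 0.0200. That rise no longer passed the test in a fit that took its spread from the wells of the 6 drugs alone, with either replicate left out, with sgNT alone, with DMSO wells of the same label as reference, or on a linear scale.

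Mebendazole, KX2391, Rigosertib and Tivantinib had no line lower than DMSO at 10 nM. Their order by dose can be read from where the mean over the lines crossed 50% of DMSO, interpolated between tested doses on a log scale. KX2391 crossed at 65.6 nM and 54.7 nM in the 2 replicates, Rigosertib at 74.2 nM and 83.4 nM, Mebendazole at 337.2 nM and 306.6 nM, and Tivantinib at 526.3 nM and 499.7 nM. The ranges of Mebendazole and Tivantinib did not overlap with each other or with those of KX2391 and Rigosertib. Paclitaxel and Vincristine were already below 50% at the lowest dose, so that their crossing lies under 10 nM and was not measured, apart from Paclitaxel in BT-20 in replicate 2, which crossed at 15.6 nM.

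With KX2391 most of the change fell in the lowest step of dose. At 10 nM its mean over the lines was 149.4% and 105.5%, and at 100 nM it was 27.7% and 30.2%. All 5 lines fell in that step, by 3.41-fold in BT-20 to 7.91-fold in SKBR3. Without the high well the fall at this step was 2.78-fold in MDA-MB-231 to 6.63-fold in SKBR3 and remained past the test in all 5 lines, and the 3 values above DMSO at 10 nM (ZR-75-1, HCC-38 and BT-20) no longer passed it. At 1 µM the mean was 22.5% and 22.2%, with a further fall in 3 lines, and at 10 µM it was 25.1% and 22.8%, with none.

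Rigosertib reached the same level as KX2391 but spread the lines over a wider dose range. Its mean over the lines was 98.6% and 86.4% at 10 nM, 42.8% and 46.9% at 100 nM, 22.7% and 26.1% at 1 µM, and 21.6% and 23.3% at 10 µM. At 100 nM SKBR3 was down to 13.1% and 15.5%, while ZR-75-1 was at 33.7% and 42.1% and HCC-38 at 41.4% and 41.9%. BT-20 was still at 63.3% and 62.6%, and MDA-MB-231 at 62.5% and 72.3%. The replicates of SKBR3 did not overlap with those of any other line, and neither did those of BT-20 and MDA-MB-231 with those of the first 3 lines. In SKBR3 Rigosertib crossed 50% at 37.9 nM and 29.1 nM, and in MDA-MB-231 at 225.5 nM and 350.6 nM.

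Mebendazole and Tivantinib acted at higher doses. With Mebendazole the mean over the lines was 98.2% and 93.1% at 10 nM, 73.8% and 76.9% at 100 nM, 28.7% and 21.6% at 1 µM, and 21.5% and 16.1% at 10 µM. At 100 nM 4 lines were lower than DMSO, by 1.23-fold (HCC-38) to 1.53-fold (ZR-75-1), and BT-20 (82.9% and 89.9%) did not pass the test (adjusted p = 0.114). The step to 1 µM was the large one, from 1.78-fold in ZR-75-1 to 7.41-fold in SKBR3. With Tivantinib the mean was 97.5% and 88.5% at 10 nM and 96.0% and 79.2% at 100 nM, with 0 of 5 lines lower than DMSO at either dose by limma, and 0 at an unadjusted p under 0.05 as well. It then fell to 32.2% and 37.4% at 1 µM and to 26.2% and 20.7% at 10 µM, and 4 lines fell again in the last step, all but ZR-75-1.

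**Figure D1:**
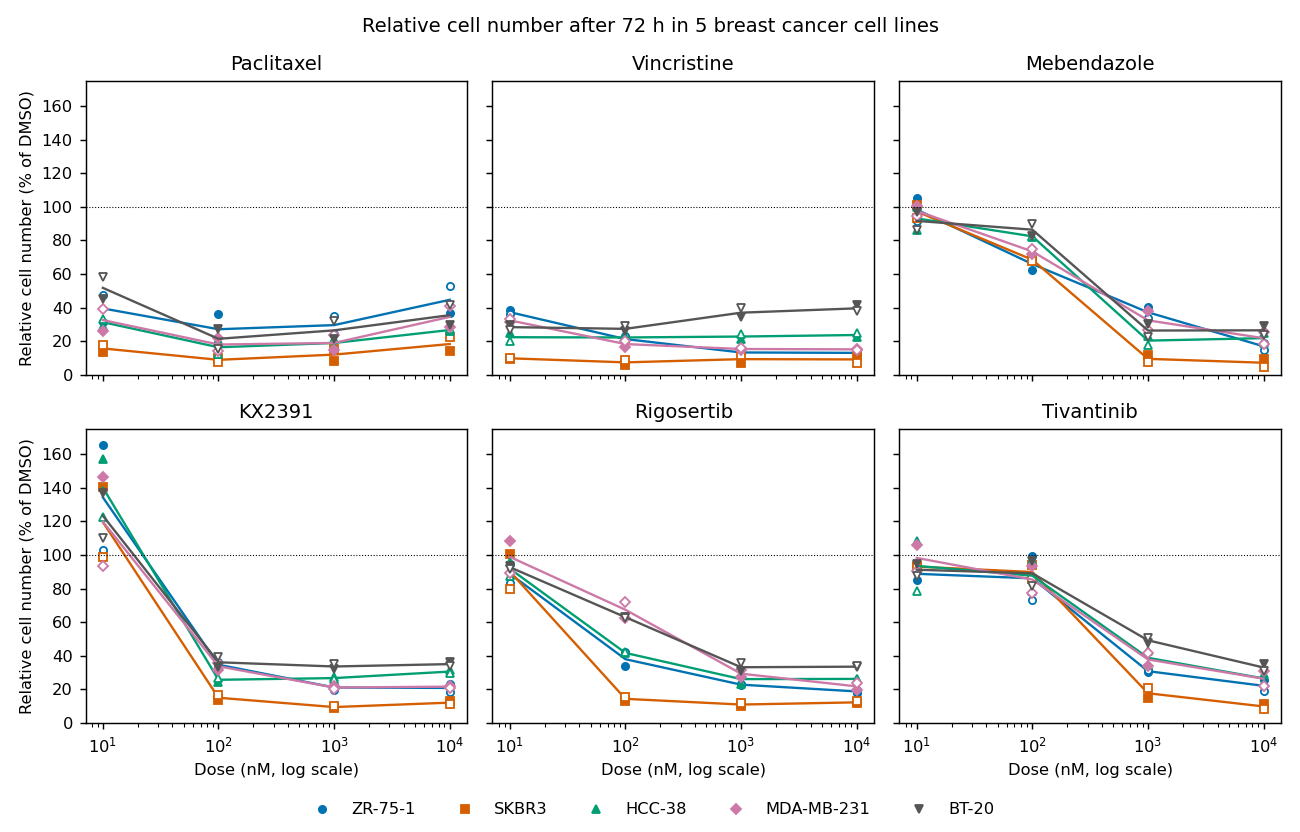
Relative cell number in percent of DMSO (vertical axis) against dose in nM on a log scale (horizontal axis), 1 panel per drug. Filled symbols are replicate 1, open symbols replicate 2, lines join the means of the 2 replicates, and the dotted line is 100%. Paclitaxel and Vincristine are low at every dose, KX2391 and Rigosertib fall between 10 nM and 100 nM, Mebendazole and Tivantinib mostly between 100 nM and 1 µM, and SKBR3 is the lowest line wherever the pool has fallen.

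Between neighbouring doses, 43 of the 90 steps of the 6 drugs went down and 6 went up past the test. Over all compounds, 25.6% of the steps went down and 0.575% went up. Of the 6 steps up, 5 were those of Paclitaxel between 1 µM and 10 µM, in which every line rose in both replicates. As a fold, the rise was largest in MDA-MB-231 (1.84-fold), from 14.5% and 23.4% to 28.3% and 40.7%. It was smallest in BT-20 (1.35-fold), from 21.1% and 31.8% to 29.7% and 41.3%. This rise depended on the processing. Without the Paclitaxel well with the steep standard curve, 1 of the 5 lines passed the test (MDA-MB-231), and the same held with reads taken over standard reads in place of the curve and in the fit with the spread of the 6 drugs alone. With DMSO wells of the same dose and replicate label as reference, 3 of the 5 passed (SKBR3, HCC-38 and MDA-MB-231), and on a linear scale none did. With sgNT alone the rise passed in BT-20 only, and not in MDA-MB-231. Since the 2 doses lay on different plates, plate and dose cannot be told apart in this step beyond what the DMSO wells show.

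The areas under the dose curves (AUC, by the trapezoid rule over the 4 dose levels, so that cells like those in DMSO have 300) put the drugs in order. Averaged over the lines, Vincristine had an AUC of 59.8 and 64.01 in the 2 replicates (mean 61.9), the lowest of the compounds tested over the same dose range. Paclitaxel followed with 68.1 and 77.02 (72.6, the fifth lowest). Rigosertib had 125.6 and 127.9 (126.7, rank 13), and KX2391 had 137.5 and 116.6 (127.1, rank 14). Mebendazole had 162.4 and 153.1 (157.7, rank 19) and Tivantinib 190.1 and 171.2 (180.7, rank 26). All 6 thus lay among the 26 lowest compounds of the range.

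**Figure D2:**
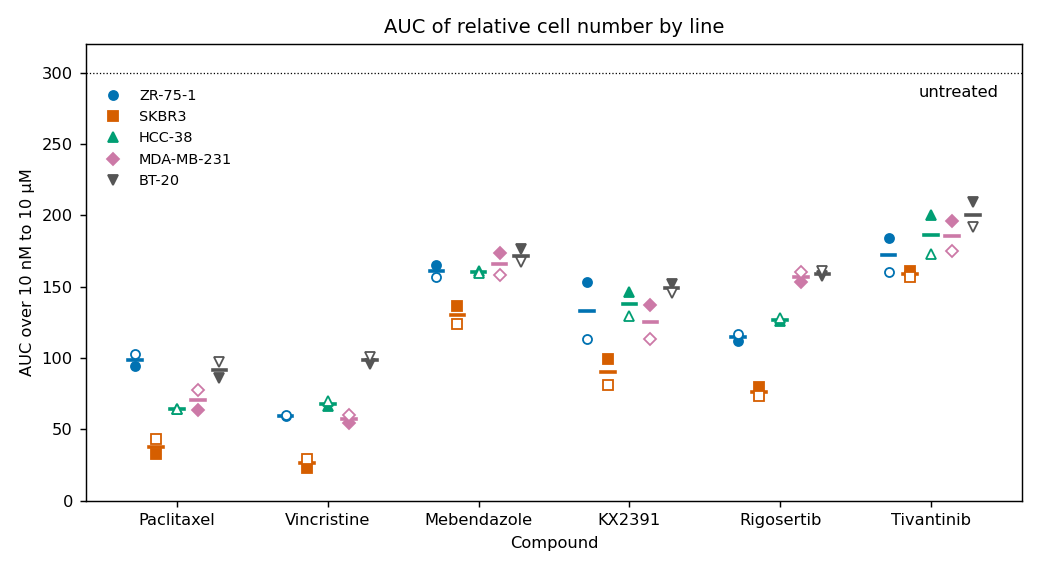
AUC of relative cell number over the 4 doses (vertical axis, dotted line at 300 for untreated cells) for the 6 drugs in each line. Filled symbols are replicate 1, open symbols replicate 2, and bars are their means. SKBR3 is the lowest line for each drug, from 26.1 with Vincristine to 158.9 with Tivantinib.

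Of the 90 differences in log2 AUC between pairs of drugs (15 pairs, each line and the mean of the lines), 80 passed the test, or 88.9% of the tests between these drugs. Pairs among the other compounds were not tested, so no background share stands beside this count or the pair counts below. For the mean of the lines 14 of the 15 pairs differed. Vincristine and Tivantinib were farthest apart, by -1.54 on the log2 scale (95% interval -1.69 to -1.40), or 2.92-fold, and Vincristine was lower in 5 of 5 lines. The destabilisers Vincristine and Mebendazole differed by -1.35 (-1.49 to -1.21, adjusted p = 1.2e-44, limma), and Vincristine was lower in 5 of 5 lines. KX2391 and Rigosertib had the same mean AUC within error, with a difference of -0.00 and a 95% interval of -0.14 to 0.14 (adjusted p = 0.989). Within this equal mean they differed in opposite directions between lines. KX2391 was 0.23 higher in SKBR3 (99.1 and 81.2 against 79.4 and 73.4, adjusted p = 0.0153). It was 0.33 lower in MDA-MB-231 (137.5 and 113.4 against 153.6 and 160.3, adjusted p = 2.5e-04), and in neither line did the replicates of the 2 drugs overlap. Without replicate 1, which held the high KX2391 well, the difference over all lines was -0.13 (adjusted p = 0.215), that in SKBR3 0.15 (adjusted p = 0.279) and that in MDA-MB-231 -0.50 (adjusted p = 6.5e-05). Without replicate 2 the difference in SKBR3 was 0.32 (adjusted p = 0.0151) and that in MDA-MB-231 -0.16 (adjusted p = 0.193).

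Paclitaxel and Vincristine, the stabiliser and the strongest destabiliser, differed by 0.23 in log2 AUC over all lines, with Paclitaxel higher (0.09 to 0.37, adjusted p = 0.00214). The difference was in ZR-75-1 (94.6 and 102.96 against 59.4 and 60.02, log2 difference 0.73), SKBR3 (32.5 and 43.2 against 23.02 and 29.2, 0.53) and MDA-MB-231 (63.3 and 77.6 against 54.4 and 60.3, 0.29). In HCC-38 it was -0.08 (-0.24 to 0.08) and in BT-20 -0.11 (-0.24 to 0.03), and neither passed the test. The difference over all lines lost the test when the spread came from the 6 drugs alone (adjusted p = 0.0782) and without replicate 2, which held the Paclitaxel well with the steep curve (0.19, adjusted p = 0.0704). With reads over standard reads it was -0.00201 (adjusted p = 0.977). By line, the difference without replicate 2 was 0.67 in ZR-75-1 and 0.50 in SKBR3. That in MDA-MB-231 was 0.22 and, like the difference over all lines, lost the test. Mebendazole and Tivantinib differed by -0.19 (-0.34 to -0.05, adjusted p = 0.00852), with Mebendazole lower in SKBR3, HCC-38 and BT-20. That difference lost the test with the spread of the 6 drugs alone (adjusted p = 0.125).

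**Figure D3:**
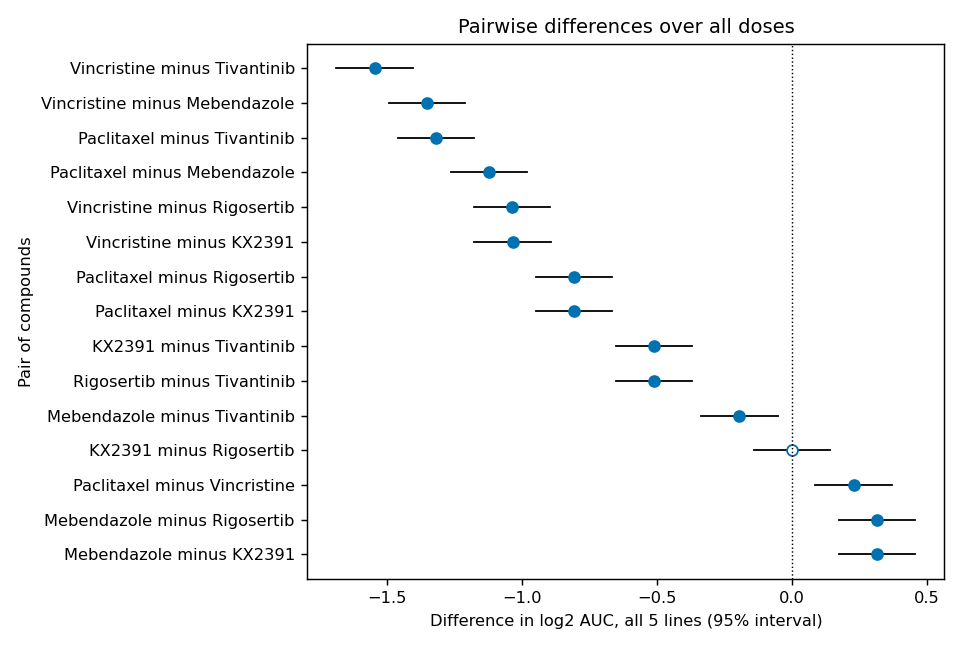
Differences in log2 AUC over the mean of the 5 lines (horizontal axis) for the 15 pairs of drugs (vertical axis). Points are the first drug minus the second, bars are 95% intervals from limma, and filled points passed an adjusted p of 0.05. The pair of KX2391 and Rigosertib is the only open point, at -0.00.

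At matched doses, 62.7% of the 300 pair-dose-line comparisons passed the test, and 58.3% did without the wells that stood apart. They numbered 51 of 75 at 10 nM, 61 at 100 nM, 44 at 1 µM and 32 at 10 µM. The drugs were thus set apart most often at 100 nM, where Paclitaxel, Vincristine and KX2391 had reached a low level and Mebendazole and Tivantinib had not. In SKBR3 at 100 nM, Rigosertib (13.1% and 15.5%) was 6.30-fold below Tivantinib (94.2% and 85.5%). Mebendazole and Tivantinib differed least often, in 4 of 20 comparisons, of which 3 were at 1 µM (SKBR3, HCC-38 and BT-20, 1.88-fold to 1.91-fold lower with Mebendazole). KX2391 and Rigosertib differed in 7 of 20, and none of the 7 was at 10 µM, where the differences of log2 values lay between -0.02 and 0.22. The 3 at 10 nM, all higher with KX2391, no longer passed the test without the high KX2391 well. At 10 µM Paclitaxel was 3.39-fold higher than Vincristine in ZR-75-1 (36.5% and 52.8% against 14.3% and 11.8%). At the same dose it was 2.24-fold higher in MDA-MB-231 (28.3% and 40.7% against 15.3% and 14.9%) and 2.003-fold higher in SKBR3. Without the Paclitaxel well with the steep curve these 3 differences still passed the test, with log2 values of 1.49, 0.90 and 0.67.

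Set against the mean of Vincristine and Mebendazole, Paclitaxel was lower by 0.45 in log2 AUC over all lines (SE 0.0620, adjusted p = 1.5e-11, limma). The 3 kinase inhibitors were higher by 0.53 (SE 0.0462, adjusted p = 6.2e-23). Of these 12 contrasts (2 contrasts, each line and the mean) 11 passed the test, or 91.7%, and the one that did not was Paclitaxel in ZR-75-1, at 0.01 (-0.17 to 0.19). These contrasts describe the compounds tested and not classes, because the difference between the 2 destabilisers (1.35) was larger than either contrast. The kinase inhibitors lay on both sides of Mebendazole, with KX2391 and Rigosertib below it by 0.32 each and Tivantinib above it by 0.19.

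The compounds sold as kinase inhibitors were then set beside compounds of the same listed target and dose range. KX2391 was compared with the Src inhibitors Saracatinib and Dasatinib, Rigosertib with the PLK inhibitor GSK461364, and Tivantinib with the c-Met inhibitors SU11274, Crizotinib and Cabozantinib. Of the 36 differences in log2 AUC (6 pairs, each line and the mean), 34 passed the test, or 94.4%. Pairs of other compounds with a shared listed target were not tested, so this count has no background share.

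KX2391 had a lower AUC than both Src inhibitors in 5 of 5 lines. At 100 nM its mean over the lines was 27.7% and 30.2%, against 82.5% and 98.3% with Saracatinib and 67.9% and 78.5% with Dasatinib. The difference in log2 AUC was -0.91 (SE 0.0716) against Saracatinib and -0.77 against Dasatinib, both by limma. The lines also fell in a different order with Dasatinib. Dasatinib had its lowest AUC in MDA-MB-231 (155.4 and 155.3) and its highest in SKBR3 (261.3 and 255.99), while KX2391 had its lowest in SKBR3 (99.1 and 81.2). The difference between KX2391 and Dasatinib ran from -0.32 in MDA-MB-231 to -1.53 in SKBR3, and the difference between these 2 lines was not itself tested.

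Rigosertib went the other way. GSK461364 was already at 49.6% and 44.5% at 10 nM, where Rigosertib was at 98.6% and 86.4%, and at 1 µM both were at about the same level (24.5% and 23.3% against 22.7% and 26.1%). The AUC of Rigosertib was higher by 0.69 over all lines (adjusted p = 7.7e-18, limma) and in 4 of 5 lines, most in MDA-MB-231 (153.6 and 160.3 against 56.5 and 49.8, log2 difference 1.57). In ZR-75-1 the AUC was 112.2 and 116.7 with Rigosertib and 125.6 and 129.05 with GSK461364, a difference of -0.15 (-0.36 to 0.05) that did not pass the test. GSK461364 was thus the weakest in ZR-75-1, and Rigosertib in BT-20 and MDA-MB-231.

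Tivantinib had a lower AUC than SU11274 (by 0.50) and Cabozantinib (by 0.58) in 5 of 5 lines, and than Crizotinib (by 0.26) in 4. At 1 µM its mean over the lines was 32.2% and 37.4%, against 79.7% and 84.6% with SU11274, 87.01% and 105.8% with Cabozantinib and 70.8% and 60.4% with Crizotinib. At 10 µM Crizotinib came down to 27.9% and 22.05%, the level of Tivantinib (26.2% and 20.7%), while SU11274 stayed at 63.3% and 49.1% and Cabozantinib at 56.7% and 42.2%. In MDA-MB-231 Tivantinib (195.8 and 175.03) and Crizotinib (186.95 and 187.2) differed by -0.02 (-0.19 to 0.16), which did not pass the test.

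**Figure D4:**
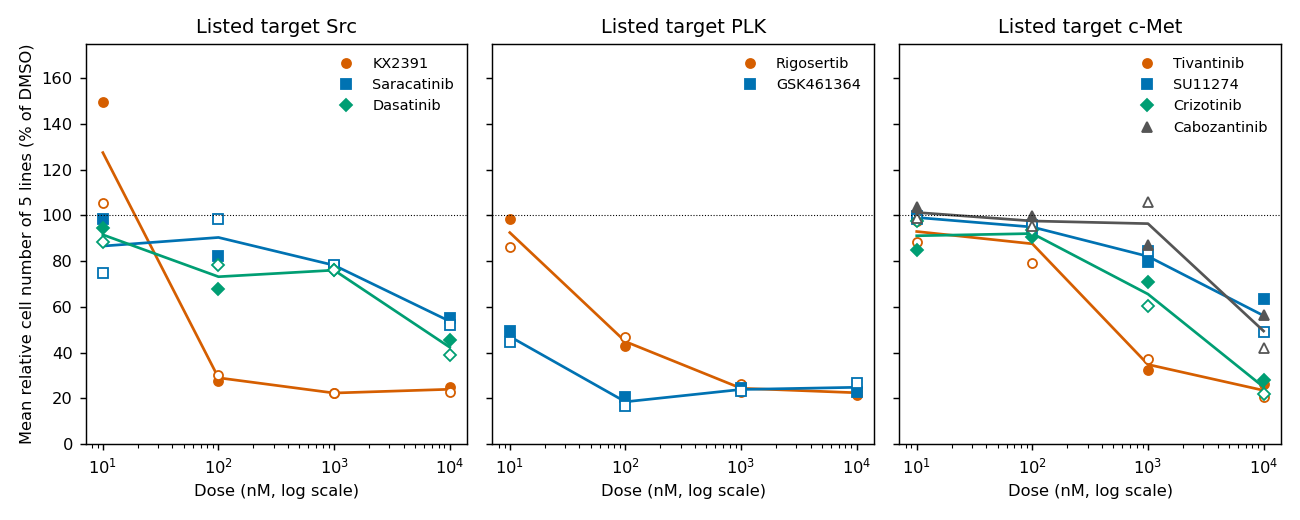
Mean relative cell number of the 5 lines in percent of DMSO (vertical axis) against dose in nM on a log scale (horizontal axis), for KX2391, Rigosertib and Tivantinib (orange) beside compounds with the same listed kinase target. Filled and open symbols are replicates 1 and 2, and lines join their means. KX2391 and Tivantinib lie below the Src and c-Met inhibitors at 1 µM, and Rigosertib lies above GSK461364 at 10 nM and 100 nM.

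The line profile of a drug is the difference between the log2 AUC of a line and the mean of the other 4 lines in the same replicate. A factor shared by all lines at all doses drops out. The slope of the standard curve of a well does not, since it scales the differences between lines. With Paclitaxel at 10 µM, HCC-38 deviated by 0.00552 in replicate 1 and by -0.45 in replicate 2, the well with the steep curve. Of the 30 deviations of the 6 drugs, 18 passed the test (7 lower, 11 higher), and over all compounds 39.9% did. Deviations are smaller for a drug whose AUC includes doses at which no line responded, which applies to the 4 drugs that were inactive at 10 nM.

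SKBR3 was lower than the other lines with all 6 drugs. Of all compounds, 35.6% were called lower in this line. The deviation was -1.55 and -1.28 in the 2 replicates with Vincristine (mean -1.41, SE 0.0443), -1.22 and -0.96 with Paclitaxel and -0.77 and -0.93 with Rigosertib. It was -0.57 and -0.62 with KX2391, -0.31 and -0.37 with Mebendazole and -0.29 and -0.15 with Tivantinib. In the 36 wells of these drugs in which the mean over the lines was below 50%, SKBR3 was the lowest line in 36. Such wells of other compounds were not counted, so no background share stands beside this count. Among the compounds of the same listed kinase target, the deviation of SKBR3 ran from -0.65 (GSK461364) to 0.35 (Dasatinib). At 10 µM alone, where all 6 drugs had acted, the deviation of SKBR3 lay between -0.95 (Paclitaxel) and -1.65 (Mebendazole). The SKBR3 values at this dose ran from 4.88% (Mebendazole, replicate 2) to 22.4% (Paclitaxel, replicate 2, the well with the steep curve). Without that well the deviation of SKBR3 with Paclitaxel was -1.07. The HER2-positive line was thus the most reduced line of the pool with the stabiliser, the destabilisers and the kinase inhibitors alike.

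BT-20 was higher than the other lines with all 6 drugs, as it was called to be with 42.5% of all compounds. The deviation was 1.02 and 0.95 with Vincristine, 0.53 and 0.50 with Paclitaxel, 0.46 and 0.48 with Rigosertib, 0.20 and 0.44 with KX2391, 0.18 and 0.21 with Tivantinib and 0.16 and 0.17 with Mebendazole. BT-20 was the highest line in 24 of the 36 wells with a mean below 50%, and ZR-75-1 was in 11, again without a background share. Among the compounds of the same listed kinase target, the deviation of BT-20 ran from 0.0475 (Cabozantinib) to 0.63 (GSK461364). With Vincristine the AUC of BT-20 was 198.3% of that of the other lines, and at 10 µM its cell number was 277.4% of theirs.

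The other lines separated the drugs. ZR-75-1 stood out with Paclitaxel, at 0.70 and 0.61 (adjusted p = 1.1e-22, limma), as it did in this direction with 10.9% of all compounds. With GSK461364, one of the compounds nearest to Paclitaxel, the deviation of ZR-75-1 was 1.01 (SE 0.0563). The deviation of this line was between -0.12 and 0.10 and did not pass the test with the other 5 drugs described here. With Vincristine ZR-75-1 changed places with dose. It was at 176.3% of the other lines at 10 nM, 126.04% at 100 nM, 72.1% at 1 µM and 68.9% at 10 µM, and with Paclitaxel it was at 129.5%, 170.4%, 162.7% and 160.2%. At 10 µM alone its deviation with Vincristine was -0.54 (adjusted p = 4.9e-05). MDA-MB-231 stood out with Rigosertib, at 0.42 and 0.48 (adjusted p = 1.5e-21), and by dose it was at 195.1% of the other lines at 100 nM and 102.3% at 10 µM. With Mebendazole it was 0.09 higher (adjusted p = 0.0459). HCC-38, which held the most reads of the pool (42.2% of the reads of the lines in DMSO), was higher with Vincristine (0.36 and 0.29) and KX2391 (0.13 and 0.22). With Paclitaxel it was 0.12 lower, but with 0.01 and -0.25 in the 2 replicates. The small deviations of HCC-38 with Paclitaxel and of MDA-MB-231 with Mebendazole lost the test with the spread of the 6 drugs alone (adjusted p = 0.108 and 0.124).

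**Figure D5:**
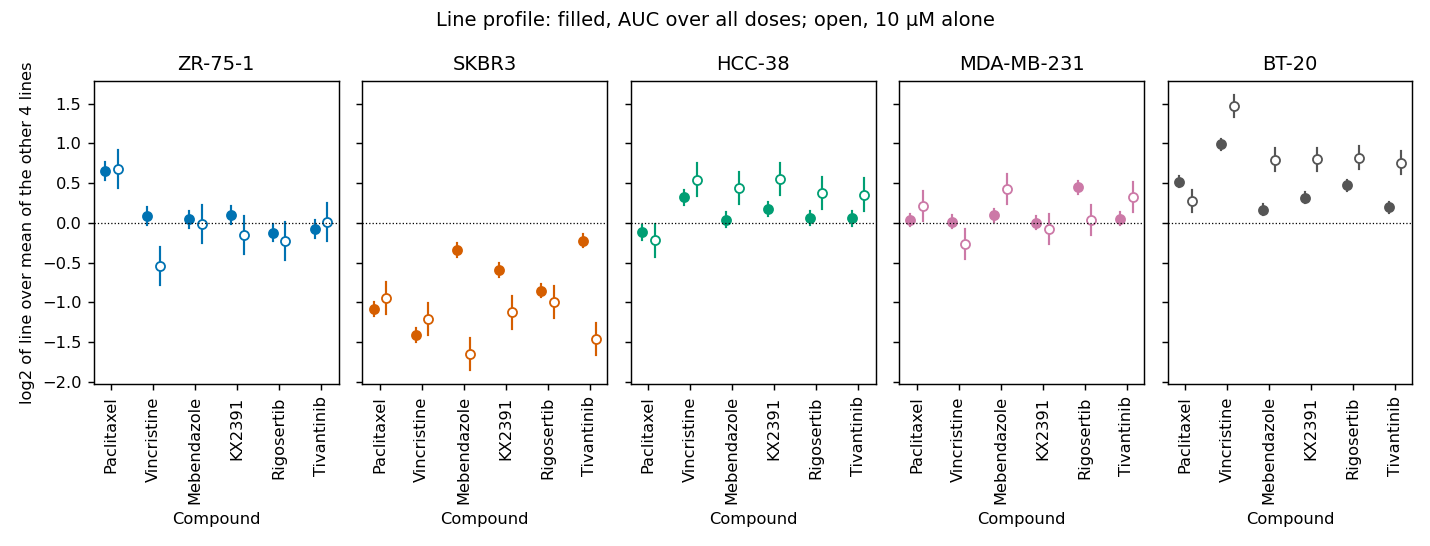
Line profile of the 6 drugs, as log2 of a line over the mean of the other 4 lines (vertical axis), 1 panel per line. Filled points are the AUC over all doses, open points the 10 µM dose alone, and bars are 95% intervals from limma. SKBR3 is below 0 and BT-20 above 0 with every drug on both measures, and ZR-75-1 is well above 0 with Paclitaxel alone.

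The line profiles themselves were compared between drugs, and 49 of the 75 differences passed the test, or 65.3%. They numbered 14 of 15 pairs in SKBR3, 13 in BT-20, 9 in HCC-38, 8 in ZR-75-1 and 5 in MDA-MB-231. All 5 called in MDA-MB-231 were the pairs with Rigosertib, and 5 of the 8 called in ZR-75-1 were the pairs with Paclitaxel. These are differences of AUC deviations, which are smaller for drugs with doses at which no line responded. At 10 µM alone, only the pair with Mebendazole passed among the Rigosertib pairs in MDA-MB-231 (Mebendazole minus Rigosertib 0.40, adjusted p = 0.00855, limma). In SKBR3 the lowest deviation was that of Vincristine over all doses (-1.41) and of Mebendazole at 10 µM alone (-1.65). Over all doses, Vincristine and Rigosertib differed in 5 of 5 lines. Paclitaxel and Vincristine differed in 4, with Paclitaxel higher in ZR-75-1 by 0.57 (0.41 to 0.72) and in SKBR3 by 0.32, and lower in HCC-38 by 0.44 and in BT-20 by 0.47. Mebendazole and Tivantinib differed in 0 of 5 lines by limma (0 at an unadjusted p under 0.05 as well), and the widest of the 5 intervals, in ZR-75-1, ran from -0.03 to 0.28. KX2391 and Rigosertib differed in 4 lines over all doses, by up to 0.44 in MDA-MB-231, and in 0 of 5 at 10 µM alone (0 at an unadjusted p under 0.05), where the differences lay between -0.13 and 0.18. At 10 µM alone Paclitaxel, the only stabiliser, was lower than each of the other 5 drugs in BT-20 and HCC-38, past the test. In BT-20 the differences were -0.49 to -1.20, and -0.50 to -1.21 without the Paclitaxel well with the steep curve. In HCC-38 they were -0.58 to -0.78. Without that well, which left only the other replicate of Paclitaxel, they shrank to -0.35 to -0.55. They were then smallest against Rigosertib (-0.37) and Tivantinib (-0.35), where the test was lost. Paclitaxel was also set apart from each of the other 5 drugs by ZR-75-1, over all doses and at 10 µM alone. In ZR-75-1 at 10 µM the difference ran from 0.66 (Tivantinib) to 1.22 (Vincristine). Without the Paclitaxel well with the steep curve these differences ran from 0.62 to 1.17 and all 5 passed the test.

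As a description with no test, each drug was matched to the other compounds of the same dose range by the root mean square difference of log2 relative cell number over the 20 line-dose points. These points share wells, the DMSO reference and the large common effect of dose. KX2391 and Rigosertib were each other's nearest compound (0.423), and so were Mebendazole and Tivantinib (0.430). After Rigosertib, the nearest to KX2391 were Teniposide (0.702) and Clofarabine (0.714), and after KX2391, the nearest to Rigosertib were Teniposide (0.640) and Mebendazole (0.662). Next to Mebendazole came APY29 (0.535) and SNS032 (0.550), and next to Tivantinib came PHA793887 (0.432), at about the distance of Mebendazole, and MK1775 (0.473). Paclitaxel was nearest to Gemcitabine (0.574) and GSK461364 (0.587) and then to Vincristine (0.683), and Vincristine to Paclitaxel (0.683), Gemcitabine (0.701) and GSK461364 (0.805). The nearest compounds of Paclitaxel and Vincristine were thus those already low at 10 nM.

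Whether a knockout changed the response to a drug was asked by the AUC of each gene sgRNA against sgNT in the same line. By the criteria of the methods, pairs in which sgNT fell by less than 25 points between the lowest and the highest dose were left out, which removed Paclitaxel and Vincristine in all 5 lines. In these, sgNT was at 5.25% to 57.9% at 10 nM, and the falls to 10 µM were at most 22.2 points (Vincristine in MDA-MB-231), while with Paclitaxel in ZR-75-1 sgNT went from 28.3% to 43.8%. For the other 4 drugs interactions were tested in 20 line-drug pairs, and 0 passed an AUC difference of 25 and an adjusted p of 0.05 by limma, against 0.0777% over all compounds. At an unadjusted p under 0.05 there were 5, and the lowest adjusted p was 0.342. The adjusted p is stricter than the paper, which called hits at the same size with an unadjusted p under 0.05 (t test). With Paclitaxel and Vincristine kept, 0 passed as well and 10 at an unadjusted p. By edgeR on the read counts 7 passed, all of them Rigosertib in SKBR3, and with the median of the sgRNAs as reference 1 passed, KX2391 with sgSLC35F2 in ZR-75-1.

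The 5 largest differences with the same direction in both replicates are given as values, since none passed. Tivantinib in ZR-75-1 with sgATF3 (ATF3, a stress-induced transcription factor) had an AUC of 205.9 and 175.5 against 127.6 and 139.8 for sgNT. Tivantinib in MDA-MB-231 with sgATF4 (ATF4, the transcription factor of the integrated stress response) had 174.6 and 112.2 against 199.6 and 192.7. KX2391 in ZR-75-1 with sgSLC35F2 (SLC35F2, a solute carrier that takes up YM155) had 75.6 and 77.2 against 140.7 and 107.7. Mebendazole in BT-20 with sgSLC35F2 had 208.2 and 195.8 against 152.5 and 162.8. Tivantinib in SKBR3 with sgXBP1 (XBP1, a transcription factor of the unfolded protein response) had 199.2 and 168.3 against 138.5 and 143.995. The shared sgNT reference is part of these values. All 9 gene sgRNAs tested with Tivantinib in ZR-75-1 lay above sgNT (by 27.95 to 75.4), as did all 11 with Tivantinib in SKBR3 (3.09 to 42.5) and all 11 with Mebendazole in BT-20 (1.14 to 44.3). Against the median of the sgRNAs in place of sgNT, the differences were 19.9 for sgATF3, 26.4 for sgXBP1 and 32.3 for sgSLC35F2 with Mebendazole, and none of these 3 passed the test. They were -46.5 for sgATF4 (adjusted p = 0.0527, limma) and -60.5 for sgSLC35F2 with KX2391 (adjusted p = 0.0439). Over the 4 drugs, 35 differences were at least 25 in size against sgNT and 6 were against the median. In each of the 5 cases the replicates of the sgRNA and of sgNT did not overlap, but the differences of the 2 replicates were far apart, such as 78.4 and 35.7 for sgATF3.

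The 7 calls that edgeR made for Rigosertib in SKBR3 (sgATF3, sgATF4, sgHSF1, sgHSF2, sgKEAP1, sgNFE2L2 and sgSLC35F2) share their reference. At 100 nM sgNT was at 2.999% and 7.16% of DMSO and the median sgRNA at 13.9% and 15.8%. All 11 gene sgRNAs were above sgNT in both wells. At 1 µM, where sgNT was at 11.7% and 10.3%, 2 and 5 of the 11 were above it. The part of the low sgNT value at 100 nM in these calls was not tested.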

How the data were processed

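Per well, the authors deposited counts of reads for each pair of a cell line barcode and an sgRNA barcode (bcl2fastq, no alignment, no normalization). A second deposited table holds, for 174 compounds, the cell number that the standard curve of a well gave, as a ratio in percent to the DMSO median of its line and sgRNA. Recomputed from the counts, they differed from the deposited ratios by at most 5.3e-05 on the log2 scale. DMSO wells were recomputed from the counts, with the median of all 96 as reference. Compound, dose level and replicate came from the labels. The raw reads and the compounds without ratios were not analysed here.

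Line means were tested on the log2 scale with limma 3.58.1 in R 4.3.3 (lmFit, eBayes), fitted to all compounds and DMSO wells, with Benjamini-Hochberg adjustment over all tests of a comparison (for pairs, over the pairs of the 6 drugs) at 0.05. The fit took its spread mostly from wells of high cell number. The SD of log2 values between replicate wells was 0.153 to 0.213 over all compounds and 0.205 to 0.336 over the 6 drugs, so that a fit with the spread of the 6 drugs alone was added. The AUC weights, the size threshold of 25 and the exclusion criteria followed the methods. edgeR 4.0.16 (quasi-likelihood, sgNT reads as offset) was an alternative for interactions. Other alternatives changed the value of a line, the scale, the pseudocount, the reference, barcode swaps, the sgRNAs of ZR-75-1, the wells and the replicate block. The tests were also run on simulated data. For the line values these had the spread of the DMSO wells (SD of log2 values 0.146 to 0.199), which was below that of the 6 drugs. The simulations therefore do not show how the tests perform at the spread of the 6 drugs. Tables were made with Python 3.11.15.

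The 6 drugs, the comparators and the lists were chosen with earlier results of these data known. Interactions named are those past both thresholds and the 5 largest with the same direction in both replicates. Neighbours named are the 3 nearest, and comparators are those of the same listed target and dose range. Whether replicate numbers pair the wells of different drugs was checked by correlating deviations from the group means.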

Additional observations from a re-analysis of the deposited data

Results flagged for a closer look

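The response of a line differed from that of the other 4 lines by a test of the difference itself in 18 of 30 cases, with the following deviations in log2 AUC. For SKBR3 they were -1.41 with Vincristine, -1.09 with Paclitaxel, -0.85 with Rigosertib, -0.59 with KX2391, -0.34 with Mebendazole and -0.22 with Tivantinib. For BT-20 they were 0.99 with Vincristine, 0.51 with Paclitaxel, 0.47 with Rigosertib, 0.32 with KX2391, 0.19 with Tivantinib and 0.16 with Mebendazole. ZR-75-1 deviated by 0.65 with Paclitaxel. MDA-MB-231 deviated by 0.45 with Rigosertib and 0.0946 with Mebendazole. HCC-38 deviated by 0.32 with Vincristine, 0.17 with KX2391 and -0.12 with Paclitaxel. Between drugs, 49 of 75 such deviations differed.

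The comparisons do not use reads on barcode pairs that were never made. In the Mebendazole well at 10 nM in replicate 2 they came to 10.9% of the number expected from random joining of line and sgRNA barcodes. The highest such value in a DMSO well was 7.91%. These are ratios to that expected number and not shares of all reads.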

How the results depend on the processing

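Over all alternatives, the counts of values lower than DMSO (94 of 120), of pairs over all doses (80 of 90), of class contrasts (11 of 12) and of differences from compounds of the same listed target (34 of 36) stayed within 1.5 times. With sgNT alone, 1 value was higher than DMSO, 26 steps went down and 3 up, 11 line deviations and 31 differences between profiles passed, and deviations turned to -0.18 (Vincristine) and -0.0769 (KX2391) in MDA-MB-231 and -0.0928 (Mebendazole, ZR-75-1). On a linear scale the counts were 5, 24 and 0, with 33.7% of pairs at matched doses and 12 differences between profiles, and AUC deviations turned to -2.62 (Paclitaxel), -5.66 (Vincristine) and -2.03 (KX2391) in MDA-MB-231, -2.76 (Vincristine, ZR-75-1) and -0.0261 (Rigosertib, HCC-38), while KX2391 minus Rigosertib was 0.34. With swapped barcodes subtracted, 1 value was higher than DMSO. With DMSO wells of the same label, 3 steps went up and KX2391 in MDA-MB-231 was -0.00123. With all 12 sgRNAs in ZR-75-1, KX2391 minus Rigosertib was 0.00695, KX2391 in MDA-MB-231 -0.0206 and Tivantinib in ZR-75-1 0.00565. Leaving out a replicate gave 0 to 5 values higher than DMSO, 28 to 39 steps down, -0.13 to 0.13 for KX2391 minus Rigosertib, -0.25 to 0.00945 for Paclitaxel in HCC-38, -0.0200 to 0.0973 for Paclitaxel and -0.0179 to 0.0220 for KX2391 in MDA-MB-231, -0.00821 to 0.0840 for Mebendazole in HCC-38, and -0.0171 to 0.22 for KX2391 in ZR-75-1. The cause of these changes was not tested.

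Alternatives chosen after seeing the data were 6. Without the 2 wells that stood apart, 0 values were higher than DMSO and 2 steps went up. With the spread of the 6 drugs alone, 34 steps went down and 1 up, and 47.3% of pairs at matched doses, 70 over all doses, 16 line deviations and 40 differences between profiles passed. With reads over standard reads, Paclitaxel minus Vincristine was -0.00201 and KX2391 minus Rigosertib 0.0381. At 10 µM alone, deviations turned to -0.54 (Vincristine), -0.0155 (Mebendazole), -0.149 (KX2391) and 0.0160 (Tivantinib) in ZR-75-1 and to -0.26 (Vincristine) and -0.0740 (KX2391) in MDA-MB-231. Without the Paclitaxel well as well, that of Paclitaxel in HCC-38 turned to 0.00552 and 30 differences between profiles passed. With Paclitaxel and Vincristine kept, 0 interactions passed. The planned median reference gave 1 interaction of these drugs (46 over all compounds). With no size threshold, edgeR gave 7 (89 over all compounds).

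Replicate numbers did not pair the wells of different drugs (the median correlation of deviations was -0.08 to 0.07 by dose, and single pairs of drugs ranged from -0.30 to 0.33). With the replicate number as a block, 94 values were lower than DMSO, 43 steps went down, and 0 interactions of these drugs passed, with 33 in place of 4 over all compounds. With 2 wells per dose, differences within the replicate spread were not detectable at this precision.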
